A study of Mus musculus with 6 samples.

Results

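Mitochondria fuse and divide continuously, and the balance of both processes sets whether they form a connected network or separate organelles. Fusion of the outer membrane is carried out by the mitofusins Mfn1 and Mfn2, and fusion of the inner membrane by Opa1, all large GTPases that pull membranes together. Fission is carried out by the cytosolic dynamin-related GTPase Dnm1l (Drp1), which receptors on the outer membrane recruit to the place of division. In skeletal muscle, mitochondria are rebuilt when myoblasts leave the cell cycle and fuse into myotubes, and they come to lie in ordered arrays between the myofibrils.

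The 10 core genes of this machinery were taken by symbol from the count tables: Mfn1, Mfn2, Opa1, Oma1, Dnm1l, Mff, Mief1, Mief2, Fis1 and Mtfp1. All 10 were found among the 54525 gene rows, and all 10 passed the filter on low counts that left 16290 genes for testing. RNA-seq was performed on C2C12, an established mouse myoblast line of WT genotype with the treatment given as None. The 3 D0 libraries are myoblasts kept in growth medium, and the 3 D5 libraries come from cultures 5 days into differentiation in low-serum medium, which makes the cells fuse into myotubes. Both groups are one cell line, and no source says that the 3 samples of a group were separate experiments, so the p-values measure the spread between these samples, which may be technical. A differentiated culture can still hold unfused cells, and in bulk RNA fewer cells of a type and less RNA per cell cannot be told apart.

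The libraries held 36555048 to 40895840 counts on genes at D0 and 25449759 to 25811300 at D5. CPM below is counts per 1000000 counts after TMM scaling. TPM is counts per exonic length, scaled to a sum of 1000000 in each library, and is the scale on which levels of different genes are compared. The groups carried the markers of their labels: 5 of 5 myotube genes were higher at D5, by 7.32 to 11.4 on the log2 scale, 3 of 3 myoblast genes were lower, and 4 of 4 proliferation genes were lower, by -5.11 to -4.40. Of 7 markers of other cell types (endothelial, blood, fat, epithelial, neuronal and glial), none passed the filter, the highest count in any library was 7, and the neuronal marker Rbfox3 was at 0. The change in proliferation markers runs with every difference between D0 and D5, and its part in the results on fusion and fission genes was not tested. Each library also carried ERCC spike-ins, synthetic RNAs added to the sample, at 0.726% to 0.859% of counts at D0 and 0.72% to 2.09% at D5.

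With TMM scaling, 9 of the 10 genes rose from D0 to D5 in edgeR's quasi-likelihood test at an adjusted p under 0.05, none fell, and Mief1 was not called; scaled to the ERCC spike-ins instead, 1 of the 10, Mief2, was still called higher. Over all tested genes, TMM scaling called 42.2% higher and 40.8% lower. ERCC scaling called 1813 of the 16290 tested genes higher and 3747 lower. In CPM, every D5 library lay above every D0 library for the same 9 genes, against 42.2% of all tested genes, and no member lay wholly below, against 41.1%. Most of the changes were small. The median log2 fold change of the 10 genes was 0.38, beside 0.0022 over all tested genes, and their median absolute change of 0.38 was under the 0.67 of all tested genes. Mief2 and Mtfp1 were the 2 members with an absolute log2 change over 1, a size reached by 35.3% of all tested genes.

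**Figure D1:**
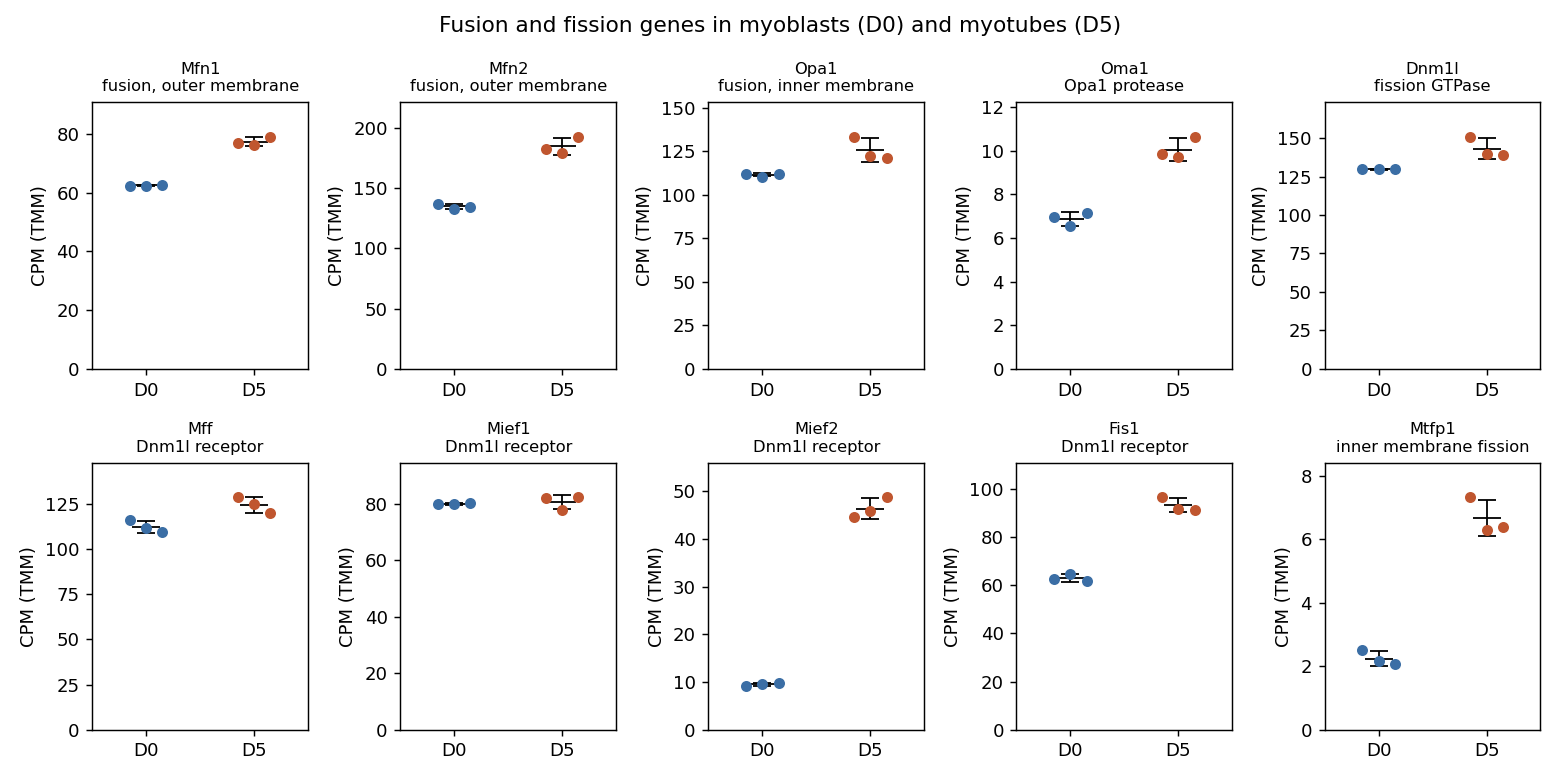
Each panel shows one fusion or fission gene, with TMM-scaled CPM on the vertical axis, 1 point per library, and the mean ± SD (n = 3) of D0 (blue) and D5 (red) as bars. Points of D5 lie above all points of D0 in every panel but Mief1, by a small step for Dnm1l (129.8 to 143.2 CPM on average) and a wide one for Mief2 (9.53 to 46.4 CPM); with ERCC scaling 7 of the 10 log2 fold changes turned negative.

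The paralogs Mief1 and Mief2 had the widest change of the 4 ratios computed. They encode the MiD51 and MiD49 proteins, which are outer membrane receptors for Dnm1l. The sequence just before each gene's annotated start is shown because the start regions of these 2 paralogs and of Mtfp1, the other gene with a large rise, are where their transcription begins. The windows are RefSeq sequences of GRCm38.p6, printed 5′ to 3′ on the strand of the gene: 250 bases at chr11:60728148-60728397 (plus strand) for Mief2, 188 bases at chr15:80233830-80234017 (plus strand) for Mief1, and 236 bases at chr11:4095446-4095681 (minus strand) for Mtfp1. Capitals mark matches to the GC box GGGCGG, the letters bound by SP and KLF factors, on either strand.
Mief2: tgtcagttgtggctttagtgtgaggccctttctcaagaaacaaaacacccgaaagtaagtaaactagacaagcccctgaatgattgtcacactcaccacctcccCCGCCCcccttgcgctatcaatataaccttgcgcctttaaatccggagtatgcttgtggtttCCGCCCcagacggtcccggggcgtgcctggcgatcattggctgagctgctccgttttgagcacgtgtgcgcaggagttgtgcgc
Mief1: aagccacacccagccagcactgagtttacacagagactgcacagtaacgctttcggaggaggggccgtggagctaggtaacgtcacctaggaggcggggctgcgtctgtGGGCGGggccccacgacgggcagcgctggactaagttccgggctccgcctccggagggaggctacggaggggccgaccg
Mtfp1: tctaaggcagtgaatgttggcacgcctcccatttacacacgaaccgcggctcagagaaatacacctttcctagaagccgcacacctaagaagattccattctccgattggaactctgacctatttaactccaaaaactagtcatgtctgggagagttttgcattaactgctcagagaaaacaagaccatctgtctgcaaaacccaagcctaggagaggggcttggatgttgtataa

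In these windows the GC box begins 146 and 84 bases before the start of Mief2 and 141 bases before RefSeq's start of Mief1, and Mtfp1 holds none. Another GC box of Mief1, 47 bases before RefSeq's start, lies beyond its printed window, which stops at the GENCODE start of the gene. Each motif was searched on both strands in RefSeq promoters of 300 bases, from 250 before to 50 after the start, 15 of them for the 10 genes and 32851 in all. GGGCGG was found in 12 of the 15 (80%) and in 35.7% of all promoters, which were not filtered on expression. The 15 are not independent, since windows of Mff overlap and hold the same GC box, and windows of Mfn2 overlap. Counted per gene, where 1 of its promoters was enough, it was found for all but Mtfp1. The share of all genes counted in that way was not computed, so this count cannot be set beside the 35.7%. CAGCTG, the E-box letters preferred by MyoD, was found in 1 of the 15, for Dnm1l, and in 16.3% of all promoters. GCATGCGC, the core of the motif of the nuclear respiratory factor NRF1, was found in 1 of the 15, for Opa1, 59 and 57 bases before its start in overlapping matches, and in 2.71% of all promoters. No member held AAGGTCA (the half-site of estrogen-related receptors, in 4.72% of promoters), AAGATGGCG (YY1, in 1.4%) or the MEF2 motif (in 3.19%). These matches describe letters in a window and say nothing of which factors were bound.

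Mief2 (ENSMUSG00000018599.5, chr11:60728398-60732951, plus strand, GRCm38) was counted 345, 403 and 394 times in the D0 libraries and 1120, 1130 and 1212 times in the shallower D5 libraries. In CPM the D0 libraries stood at 9.21, 9.59 and 9.78 and the D5 libraries at 44.6, 45.9 and 48.7. The groups were far apart, and the spread within each was small beside the gap. The log2 fold change was 2.28 ± 0.06 (SE), a 4.86-fold rise (adjusted p = 7.8e-26, edgeR's quasi-likelihood test), and leaving out any one library kept it between 2.24 and 2.31. With ERCC scaling it was 1.70 ± 0.53 (SE) with an adjusted p of 0.0064 in the same test.

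Mief1 (ENSMUSG00000022412.14, chr15:80234018-80253371, plus strand) stood at 79.9, 79.9 and 80.5 CPM at D0 and at 82.2, 77.9 and 82.3 CPM at D5. One D5 library lay below all D0 libraries and the other two above them. The log2 fold change was 0.01 ± 0.04 (SE; 95% interval -0.06 to 0.09) (adjusted p = 0.75, edgeR's quasi-likelihood test), and its sign depended on the scaling. In TPM it was 33.5, 34.2 and 34.8 at D0 and 32.2, 29.3 and 31.3 at D5, and here every D5 library was below every D0 library, as for 47.7% of all genes; with TPM from coding length the groups overlapped. Of its exonic bases, 2.63% are shared with the gene AC140267.1 on the same strand, so a few reads may belong to either gene.

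The ratio of the paralogs within a library does not depend on how libraries are scaled, but its level depends on the length taken for each gene. In TPM from exonic length, Mief1 to Mief2 was 2.91, 2.79 and 2.76 in the D0 libraries and 0.618, 0.569 and 0.566 in the D5 libraries. With coding length in place of exonic length it was 8.5, 8.18 and 8.07 at D0 and 1.81, 1.67 and 1.66 at D5. The ratio was lower at D5 in every library with both lengths, but which paralog was the more abundant at D5 depended on the length: Mief2 with exonic length (8106 bases for Mief1 and 2716 for Mief2), and Mief1 with coding length (1389 and 1362 bases). The log2 ratio fell by 2.27 with both lengths, with exonic length from 1.49 ± 0.04 to -0.78 ± 0.07 (SD, n = 3). An exact permutation test (two-sided) gave p = 0.1, which is the smallest p that 3 libraries against 3 allow, and 0.1 after adjustment over the 4 ratios computed. No 50-base stretch was shared between transcripts of these paralogs, nor between those of Mfn1 and Mfn2.

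**Figure D2:**
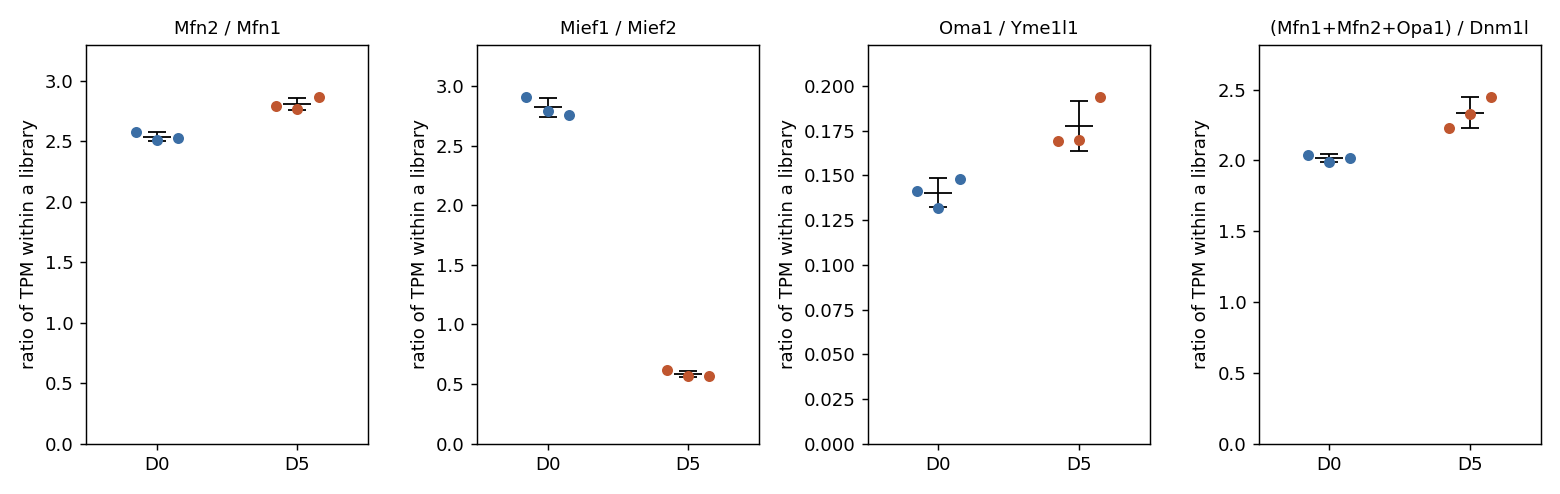
The panels show 4 ratios of TPM from exonic length within each library, 1 point per library with the mean ± SD (n = 3) of D0 (blue) and D5 (red), on linear axes that start at 0. The groups do not overlap in any panel; Mief1 to Mief2 drops from a mean of 2.82 to 0.584 (from 8.25 to 1.71 with coding length, so its place above or below 1 at D5 depends on the length), while the other 3 ratios rise by small steps.

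Mff and Fis1 are further outer membrane proteins on the fission side. Mff (ENSMUSG00000026150.14, chr1:82724890-82752394, plus strand), regarded as the main receptor of Dnm1l in mammalian cells, stood at 116.2, 111.6 and 109.8 CPM at D0 and at 128.7, 124.9 and 119.8 CPM at D5. The groups did not overlap in CPM, but the lowest D5 library was close to the highest D0 library. The log2 fold change was 0.15 ± 0.04 (SE; adjusted p = 5e-04, edgeR's quasi-likelihood test); with scaling to total counts it was 0.06 with an adjusted p of 0.11, and the call was lost. In TPM the ranges overlapped, with means of 39.9 ± 0.55 at D0 and 39.6 ± 2.04 at D5 (SD, n = 3).

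Fis1 (ENSMUSG00000019054.13, chr5:136953275-136966234, plus strand), a tail-anchored protein that binds fission factors and whose need for fission varies among cell types, stood at 62.7, 64.6 and 61.6 CPM at D0. The D5 libraries stood at 96.5, 91.8 and 91.4 CPM, all well above D0. This gave a log2 fold change of 0.57 ± 0.04 (SE), a 1.48-fold rise (adjusted p = 1.6e-14, edgeR's quasi-likelihood test). With ERCC scaling the value was 0.00068 ± 0.52 (SE), and Fis1 was not called. That error is wide beside the 0.04 of TMM scaling, so the ERCC value does not separate no change from the TMM rise.

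Dnm1l itself (ENSMUSG00000022789.15, chr16:16312230-16358959, minus strand) had, with Mff and Opa1, the smallest changes of the 9 genes called. These changes differed from each other by less than their standard errors. The CPM of Dnm1l was 129.7, 130.1 and 129.6 at D0 and 150.9, 139.8 and 138.9 at D5, where replicate 1 stood above the others. Between the groups this was a log2 fold change of 0.14 ± 0.04 (SE), a 1.10-fold rise (adjusted p = 0.00057, edgeR's quasi-likelihood test). Scaled to total counts it was 0.06 with an adjusted p of 0.14, so the call depended on the scaling. In TPM the groups overlapped, at 84.8, 86.7 and 87.3 in the D0 libraries and 91.9, 81.9 and 82.3 in the D5 libraries. The gene Gm49521 overlaps 4.67% of its exonic bases on the opposite strand, and without a stated strand setting its reads cannot be told apart from those of Dnm1l there.

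Mtfp1 (MTP18; ENSMUSG00000004748.5, chr11:4091480-4095445, minus strand), an inner membrane protein linked to fission, had the fewest counts of the 10 genes. It had 94, 91 and 83 counts at D0 and 184, 155 and 159 at D5, or 2.51, 2.16 and 2.06 CPM and 7.33, 6.29 and 6.39 CPM. All D5 libraries were above all D0 libraries in counts as well as in CPM, although the D5 libraries were shallower. On the log2 scale Mtfp1 rose by 1.57 ± 0.12 (SE), a 2.98-fold rise (adjusted p = 7.9e-13, edgeR's quasi-likelihood test). With ERCC scaling it was 0.995 ± 0.53 (SE) with an adjusted p of 0.14 in the same test.

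On the fusion side, both mitofusins rose under TMM scaling, Mfn2 by more than Mfn1. With ERCC scaling both log2 fold changes were negative, -0.13 ± 0.51 for Mfn2 and -0.27 ± 0.52 for Mfn1 (SE), and neither was called. Mfn2 (ENSMUSG00000029020.13, chr4:147873599-147904704, minus strand), which also tethers mitochondria to the endoplasmic reticulum, stood at 136.8, 133.1 and 134.7 CPM at D0 and at 182.5, 179.4 and 192.8 CPM at D5. Its log2 fold change was 0.46 ± 0.03 (SE; adjusted p = 2.7e-13, edgeR's quasi-likelihood test). Mfn1 (ENSMUSG00000027668.13, chr3:32529465-32579239, plus strand), the mitofusin with the higher GTPase activity, stood at 62.4, 62.4 and 62.6 CPM at D0 and at 77.1, 76.1 and 79.1 CPM at D5. The D0 libraries were nearly identical and the D5 libraries all higher. Its log2 fold change was 0.31 ± 0.04 (SE; adjusted p = 8.3e-09, edgeR's quasi-likelihood test).

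Per length, Mfn2 was the more abundant mitofusin in all 6 libraries. The TPM ratio of Mfn2 to Mfn1 was 2.58, 2.51 and 2.53 at D0 and 2.79, 2.77 and 2.87 at D5. Every D5 ratio was above every D0 ratio, and the log2 ratio rose by 0.15 (exact permutation test, two-sided, p = 0.1, the smallest possible).

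Opa1 (ENSMUSG00000038084.16, chr16:29579334-29654884, plus strand), which also shapes the cristae, stood at 112.1, 110.5 and 111.7 CPM at D0 and at 133.4, 122.3 and 121.0 CPM at D5. Replicate 1 was the highest D5 library, as for Dnm1l. Opa1 rose by 0.17 ± 0.04 on the log2 scale (SE; adjusted p = 9.6e-05, edgeR's quasi-likelihood test); scaled to total counts it was 0.09, with an adjusted p of 0.03. In TPM the groups overlapped, with means of 48.9 ± 0.70 at D0 and 49.5 ± 3.66 at D5 (SD, n = 3). Opa1 is made as several splice forms whose proteins are cleaved differently, and gene counts do not separate them.

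Oma1 (ENSMUSG00000035069.3, chr4:103313812-103371868, plus strand), the stress-activated protease that cleaves Opa1 to its short form, had 261, 275 and 288 counts at D0 and 247, 239 and 265 at D5. In CPM this was 6.97, 6.54 and 7.15 at D0 and 9.83, 9.70 and 10.7 at D5. The raw counts overlapped and the CPM values did not, since the D5 libraries held fewer counts in all. The log2 fold change was 0.55 ± 0.08 (SE, adjusted p = 6.9e-07, edgeR's quasi-likelihood test). With ERCC scaling it was -0.05 ± 0.52 (SE) with an adjusted p of 0.95 in the same test.

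Yme1l1 is the protease that cleaves Opa1 without stress. It rose by 0.21 on the log2 scale, from 183.2 ± 2.32 to 211.6 ± 6.20 CPM (SD, n = 3, adjusted p = 1.3e-06, edgeR's quasi-likelihood test). In TPM from exonic length its groups overlapped, with means of 79.1 ± 0.78 at D0 and 81.9 ± 3.6 at D5. The TPM ratio of Oma1 to Yme1l1 was 0.141, 0.132 and 0.148 at D0 and 0.169, 0.17 and 0.194 at D5. Oma1 thus stayed the minor transcript of the pair in all libraries, and the log2 ratio was higher at D5 by 0.34 without overlap (exact permutation test, two-sided, p = 0.1, the smallest possible).

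The fusion GTPases were also set against Dnm1l. The summed TPM of Mfn1, Mfn2 and Opa1 was 2.04, 1.99 and 2.02 times the TPM of Dnm1l in the D0 libraries and 2.23, 2.33 and 2.45 times in the D5 libraries. All D5 values were higher, and the log2 ratio rose by 0.21, from 1.01 ± 0.02 to 1.22 ± 0.07 (SD, n = 3; exact permutation test, two-sided, p = 0.1, the smallest possible). Levels of transcripts are not levels or activities of proteins, and the latter are set for Dnm1l and Opa1 in part by phosphorylation and cleavage.

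**Figure D3:**
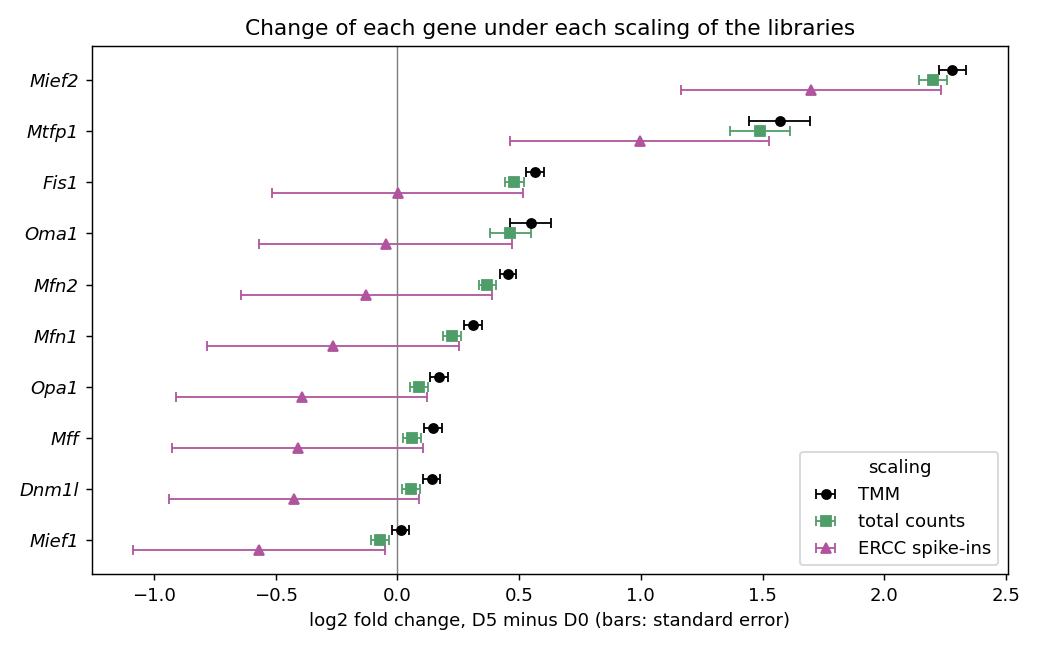
The log2 fold change of each gene (D5 minus D0, horizontal axis) is drawn with its standard error for TMM scaling (black circles), total counts (green squares) and ERCC spike-in scaling (pink triangles). TMM values run from 0.01 for Mief1 to 2.28 for Mief2, total-count values lie slightly to their left, and ERCC values lie further left with wide errors, 7 of them below 0.

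The scaling shifted all genes together. Under ERCC scaling the median log2 fold change of all tested genes was -0.58 and that of the 10 genes was -0.20. Relative to that shifted median all 10 genes lay on the higher side, Mief1 by the least, at -0.57. Total-count scaling moved the median of all genes to -0.08 and left 7 of the 10 genes called higher, beside 6281 of all 16290 tested genes. The spike-in share differed among the D5 libraries from 0.72% to 2.09%, and its part in the wide errors of the ERCC values was not tested. The paper's methods do not say how the spike-ins were added, by amount of RNA or by number of cells.

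Levels of the 10 genes are compared per length, in TPM, and the order depends on the length taken. With exonic length, at D0 the order of mean TPM was Fis1 (127), Mfn2 (89.8), Dnm1l (86.3), Opa1 (48.9), Mff (39.9), Mfn1 (35.3), Mief1 (34.2), Mief2 (12.1), Oma1 (11.1) and Mtfp1 (4.46). Between neighbours in that order, the ranges of Mfn1 and Mief1 overlapped, and so did those of Mief2 and Oma1. At D5 Fis1 (169), Mfn2 (110) and Dnm1l (85.4) came first in TPM from exonic length, and Mief2 (52.9) stood beside Opa1 (49.5), with overlapping ranges. Below them came Mff (39.6) and Mfn1 (39.3), which overlapped, and then Mief1 (30.9), Oma1 (14.5) and Mtfp1 (11.9). A union of exons that is longer than the transcripts in use lowers a TPM, and that of Mff is 9757 bases. With coding length, an alternative chosen after seeing the data, Fis1 stayed first in both groups (mean TPM 182 and 262), Mff stood second (156 and 168) and Oma1 last (5.80 and 8.24). The ranges of Oma1 and Mtfp1 (5.93) overlapped at D0, so the last place was not settled there. Mief2 was then at 9.21 at D0 and 43.6 at D5, below Mief1 (74.5) and Opa1 (53.7) at D5 and overlapping Mfn1 (44.6).

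**Figure D4:**
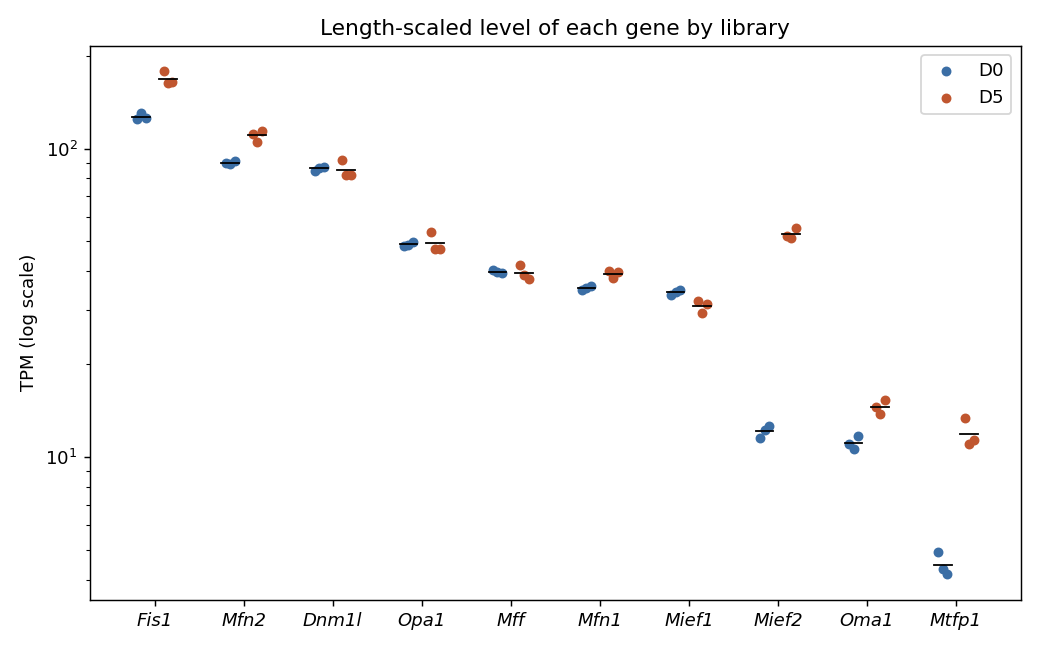
TPM from exonic length of each gene in each library, on a log axis, with D0 in blue, D5 in red and the group mean as a line. Fis1 is highest (127 at D0 and 169 at D5 on average) and Mtfp1 lowest; Mief2 goes from the level of Oma1 to that of Opa1, and Opa1, Dnm1l and Mff overlap between groups; with coding length Mief2 stays below Opa1, and Opa1, Dnm1l and Mff do not overlap.

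In TPM from exonic length, 6 of the 10 genes had every D5 library above every D0 library (Mfn1, Mfn2, Oma1, Mief2, Fis1 and Mtfp1), beside 35.9% of all genes, 1 lay below (Mief1), beside 47.7%, and 3 overlapped. With coding length, 9 lay above and Mief1 overlapped. The share of all genes was not computed for that length, so whether 9 is unusual there cannot be told. The summed TPM of the 10 genes was 483.3, 491.3 and 492.5 at D0 and 629.4, 580.5 and 599.1 at D5, given as a description. Within that sum, Mief2 took 2.48% ± 0.09 at D0 and 8.79% ± 0.48 at D5 (SD, n = 3). The share of Dnm1l went from 17.6% ± 0.10 to 14.1% ± 0.44, and that of Fis1 from 26% ± 0.55 to 28% ± 0.49. Shares add up to the whole, so a gain of one gene lowers the others.

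Of 37 further genes listed as regulators of mitochondrial dynamics, 35 were tested. By TMM scaling, 22 (62.9%) were called higher and 10 (28.6%) lower, beside 42.2% and 40.8% of all tested genes, and 3 (March5, Miga1 and Chchd6) neither. Gdap1 and Pld6 did not pass the filter. The median log2 fold change of those tested was 0.21, over a range from -2.98 to 1.21. With ERCC scaling none of them was called higher and 4 were called lower. Over all 16290 tested genes, that scaling called 1813 higher and 3747 lower. CPM values of the genes named next are means ± SD of 3 libraries.

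On the fission side of this list, 6 of 11 tested genes rose (54.5%) and 4 fell (36.4%). These shares were not far from the 42.2% and 40.8% of all tested genes. The side names the process a gene bears on, not whether it promotes or restrains that process. The counts therefore give no direction for fission. The largest rises were those of Mtfr1l, a paralog of the fission regulator Mtfr1, from 60.6 ± 2.44 to 131.8 ± 5.18 CPM (log2 fold change 1.12), and of Akap1, from 39.3 ± 0.62 to 82.4 ± 1.89 CPM (1.07). Akap1 anchors protein kinase A at the outer membrane, where the kinase phosphorylates and restrains Dnm1l. The largest falls were those of Mtfr2, a fission regulator, from 9.20 ± 0.21 to 1.17 ± 0.18 CPM (log2 fold change -2.98), and of Senp5, a SUMO protease that acts on Dnm1l, from 217.6 ± 3.81 to 84.4 ± 1.34 CPM (-1.37). In edgeR's quasi-likelihood test the adjusted p values of these 4 genes lay between 1.5e-25 and 4e-19.

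Cdk1, the mitotic kinase that phosphorylates Dnm1l before cell division, fell with a log2 fold change of -4.40, from 162.8 ± 3.28 to 7.71 ± 0.64 CPM (SD, n = 3), as did the other proliferation markers. Among the classical dynamins, which share the GTPase fold of Dnm1l, Dnm1 rose from 16.7 ± 1.35 to 58.5 ± 2.06 CPM (log2 fold change 1.81, adjusted p = 9.3e-24 in edgeR's quasi-likelihood test). Dnm2, which is expressed in most tissues, fell by 0.08 on the log2 scale, from 127.6 ± 2.61 to 120.5 ± 0.61 CPM (adjusted p = 0.024 in edgeR's quasi-likelihood test). Dnm3 fell from 17.7 ± 0.92 to 13.8 ± 0.88 CPM (log2 fold change -0.36, adjusted p = 1.3e-05 in edgeR's quasi-likelihood test).

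On the fusion side of the list, 3 of 5 tested genes rose and 1 fell, beside 42.2% and 40.8% of all tested genes. Here too the side names the process and not a gene's effect on it, so the counts give no direction for fusion. Slc25a46, an outer membrane protein that binds Mfn2 and Opa1, rose from 61.6 ± 1.04 to 84.8 ± 2.63 CPM (log2 fold change 0.46), and Mtch2, an outer membrane insertase, from 117.7 ± 2.65 to 144.5 ± 5.40 CPM (0.30). Miga2, a mitoguardin of the outer membrane, fell from 23.7 ± 0.72 to 14.4 ± 1.61 CPM (-0.72). Of 8 genes of Opa1 processing and its inner membrane scaffold, 5 rose (62.5%) and 3 fell (37.5%), beside 42.2% and 40.8% of all tested genes. Among subunits of the matrix-facing AAA protease, Afg3l2 rose from 58.1 ± 2.08 to 104.8 ± 0.67 CPM (log2 fold change 0.85) and Afg3l1 fell from 89.1 ± 0.69 to 53.7 ± 0.86 CPM (-0.73). Of the prohibitins, which form a ring together, Phb rose from 58.1 ± 2.39 to 73.6 ± 0.73 CPM (0.34) and Phb2 fell from 131.6 ± 1.42 to 106.6 ± 1.42 CPM (-0.30).

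Genes of MICOS, the complex that holds cristae junctions, gave 6 of 7 called higher, beside 42.2% of all tested genes, and Chchd6 was not called. In TPM from exonic length, 4 of the 7 had every D5 library above every D0 library, beside 35.9% of all genes. Chchd3 and Apool overlapped there, and Chchd6 lay below, beside 47.7% of all genes. Chchd6 also lay below in CPM, beside 41.1%. The largest rises were those of 2410015M20Rik (Micos13), from 24.7 ± 2.90 to 57.0 ± 1.33 CPM (log2 fold change 1.21), and Apoo, from 19.2 ± 0.39 to 26.3 ± 1.92 CPM (0.46). Of the 4 transport genes 2 rose and 2 fell, 50% each, near the 42.2% and 40.8% of all tested genes. The Miro GTPases Rhot2 (log2 fold change 0.33) and Rhot1 (0.19) rose, and the motor adaptors Trak2 (-0.95) and Trak1 (-0.11) fell. In edgeR's quasi-likelihood test the adjusted p of the fusion-side, scaffold, MICOS and transport genes named as rising or falling ran from 3.6e-21 (Trak2) to 0.0031 (Trak1).

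**Figure D5:**
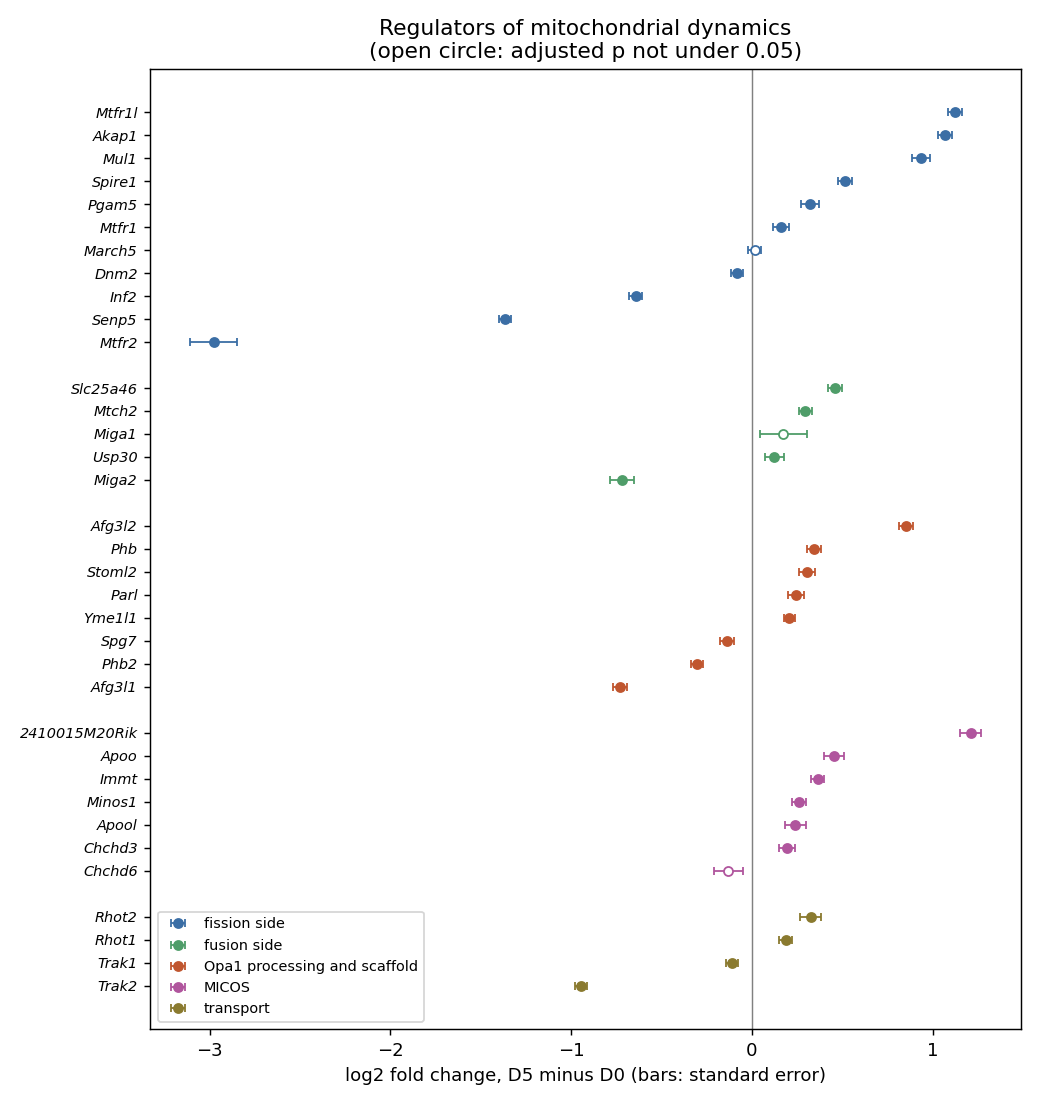
Log2 fold changes (D5 minus D0, TMM scaling) of the 35 tested regulators with standard errors, coloured by role; open circles mark the 3 that were not called. Values run from -2.98 (Mtfr2) to 1.21 (2410015M20Rik), and the fission side spans the widest range. Of the MICOS genes, 6 of 7 lie to the right of 0. With ERCC scaling none of the 35 was called higher, beside 1813 of all 16290 tested genes.

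Of 10 genes often used to follow mitochondrial content, 5 were called higher, 4 lower and 1 (Vdac3) neither, shares near the 42.2% and 40.8% of all tested genes. With ERCC scaling 0 of the 10 were called higher and 3 lower, beside 1813 and 3747 of all 16290 tested genes. The largest rises were those of Timm23, an import channel of the inner membrane, with a log2 fold change of 0.36, and Tomm22, an import receptor, with 0.31. The largest falls were those of the chaperonin Hspd1, from 410.5 ± 10.9 to 160.5 ± 6.09 CPM (log2 fold change -1.36), and Tomm40, the import pore of the outer membrane, from 69.1 ± 2.73 to 39.9 ± 0.82 CPM (-0.79). Whether the rises of the fusion and fission genes follow mitochondrial content was not tested.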

How the data were processed

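RNA-seq counts of 6 C2C12 libraries, 3 at D0 and 3 at D5, were used. The authors deposited raw counts per gene from featureCounts on GRCm38. The paper's methods name HISAT2 and the labels name Tophat2 as the aligner, and strand setting and annotation release are not given in the sources used here. The submitters' processing notes also name DESeq2 1.6.3. A row without a gene name, which equals the total of its column, and 92 ERCC rows (0.72% to 2.09% of counts) entered neither library sizes nor tests. Exonic lengths, positions and overlaps came from GENCODE M21, matched for 99.9% of gene rows by identifier.

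From the deposited counts, TMM factors, CPM and TPM were computed, and D5 was compared with D0 by the quasi-likelihood test of edgeR 4.0.16 in R 4.3.3 after filterByExpr, with Benjamini-Hochberg adjustment over 16290 genes and a threshold of 0.05. The SE is the absolute log2 fold change over the square root of F. Ratios were compared by exact permutation tests. Promoters came from RefSeq (GRCm38.p6): motifs were searched in 300 bases, 250 before to 50 from the start, and the windows printed hold only bases before both the RefSeq and the GENCODE start. Alternatives were DESeq2 1.42.0, upper-quartile, total-count and ERCC scaling, no filter, at least 10 counts in every library, a replicate block, coding length in place of exonic length, and each library left out. Scripts were tested on simulated data. No replicate pair within a group was as close as sampling noise allows.

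The 10 genes and all lists were chosen with earlier results of these data known. All 10 are named; of the regulators and content genes, values are given for the 2 largest rises and falls past the threshold in each role, with Yme1l1, the dynamins and Cdk1 added.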

Additional observations from a re-analysis of the deposited data

How the results depend on the processing

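Of the 10 genes, 9 were called higher with DESeq2, upper-quartile scaling, no filter, at least 10 counts in every library and the replicate block. The same number was called without any one library, and 7 with total counts. Of all 16290 tested genes, DESeq2 called 6563 higher, upper-quartile scaling 6753, the replicate block 6894 and total counts 6281. It was 7637 of 29266 with no filter and 5742 of 13713 with at least 10 counts. Without one library it ran from 6723 of 16268 to 6936 of 17158. ERCC scaling moved the counts most: 1 of the 10 genes was called higher, 0 regulators higher and 4 lower, 0 content genes higher, and 5560 genes in all against 13510, of which 67.4% were lower against 49.2%. With it the log2 fold changes of Mfn1 (-0.265), Mfn2 (-0.127), Opa1 (-0.393), Oma1 (-0.0487), Dnm1l (-0.425), Mff (-0.409) and Mief1 (-0.567) turned negative, none of them called. Mief1, near 0 throughout, was also negative with upper-quartile scaling (-0.00301), total counts (-0.0719), no filter (-0.0403) and without one D0 library, with a range of -0.00411 to 0.0431 over the libraries left out. With no filter Dnm1l (0.0881) and Mff (0.0928) stayed called at over 1.5 times smaller changes. The cause of these shifts was not tested. The 4 ratios kept the direction of their change with coding length and without each library, but with coding length the level of Mief1 to Mief2 went from 8.25 to 1.71 in place of 2.82 to 0.584, and that of Oma1 to Yme1l1 from 0.0516 to 0.0654 in place of 0.14 to 0.178.

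Whether the replicate numbers pair the samples is not given in the sources used here. Libraries of the same number correlated at 0.0329, 0.0645 and 0.0277 in their deviations from the group means. These values are small, but each D0 library correlated best with its own number, a hint from the data and not the design. With a replicate block 13558 genes were called, 9 of the 10 among them. Counts of under 100 per library at D0 limit Mtfp1, and 3 libraries a group keep exact tests at 0.1 or above.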
